A study of Mus musculus with 22 samples.

Results

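Potassium channel genes were examined in RNA-seq of whole mouse spinal cord. The set was every protein-coding gene whose mouse symbol starts with Kcn and which had at least 10 counts in at least 3 libraries. It held 77 of the 94 Kcn genes among the 21995 genes of the deposited count table. Of these 77 genes, 36 encode voltage-gated alpha subunits (Kv), 11 inward rectifiers (Kir), 10 two-pore-domain leak channels (K2P), 8 calcium-activated channels and their sodium-activated relatives (KCa), and 12 auxiliary subunits. The libraries came from 22 C57BL/6 mice in 4 groups: 8 young wild-type mice aged 3 to 4 months, 8 old wild-type mice aged 18 to 24 months, 3 mice that carry the human SOD1G93A transgene, and 3 wild-type controls, with an age of 5 to 6 months in the last 2 groups. The young and old mice were all male, and the SOD1G93A and control groups each had 2 females and 1 male. The SOD1G93A mice were symptomatic, and the line overexpresses a mutant human superoxide dismutase that causes familial amyotrophic lateral sclerosis (ALS). Young and old libraries were made with the Roche KAPA Hyperprep kit and the SOD1G93A and control libraries with Illumina TruSeq, so levels were compared only within each experiment.

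Potassium channels let potassium ions flow through the cell membrane and pull the membrane potential toward rest. In neurons, Kv channels end the action potential and set how fast a cell can fire, Kir and K2P channels hold the resting potential, and KCa channels produce the hyperpolarization that follows spikes. Astrocytes take up the potassium that neurons release, largely through the inward rectifier encoded by Kcnj10, and microglia carry K2P, KCa and Kv channels of their own. Auxiliary subunits form no pore and change the trafficking or gating of the pore-forming proteins.

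The pore-forming proteins share a selectivity filter, whose codons were searched for in the coding sequence of each gene. The pattern was ACNNTNGGNTNNGGN, in frame and on the coding strand only, where N is any base. It reads threonine, a hydrophobic residue, glycine, a residue whose codon starts with T, and glycine. Codons that start with T include those of aromatic residues, but also those of serine and some of leucine. The pattern was present in 53 of the 65 pore-forming members (81.5%), in 0 of the 12 auxiliary members, and in 185 of the 21362 protein-coding genes of the table with a coding sequence in the annotation (0.866%). In the K2P genes, whose subunits have a pair of pore loops, 8 of 10 held at least 2 copies. A gene without the pattern, such as Kcnj14 or Kcnk1, lacks only these letters. The windows below are shown because they belong to genes of each pore-forming class that the results turn on, with the 15 bases of the pattern in capitals (GRCm38, 5′ to 3′ on the coding strand, GENCODE M21 coding sequences). The windows of Kcnk6 and the first of Kcnk9 join 2 exons, so their coordinates span an intron. All the others lie within 1 coding exon.
Kcng4 (Kv, chr8:119625889-119625945, - strand): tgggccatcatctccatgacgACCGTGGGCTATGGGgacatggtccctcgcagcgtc
Kcns1 (Kv, chr2:164164833-164164889, - strand): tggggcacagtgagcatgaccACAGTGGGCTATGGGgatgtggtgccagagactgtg
Kcnj2 (Kir, chr11:111072186-111072242, + strand): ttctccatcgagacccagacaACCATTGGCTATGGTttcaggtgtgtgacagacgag
Kcnk9 (K2P, first pore, chr15:72513016-72546024, - strand): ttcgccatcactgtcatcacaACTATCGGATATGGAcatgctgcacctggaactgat
Kcnk9 (K2P, second pore, chr15:72512698-72512754, - strand): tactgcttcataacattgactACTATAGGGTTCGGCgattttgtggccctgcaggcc
Kcnk6 (K2P, chr7:29225839-29232189, - strand): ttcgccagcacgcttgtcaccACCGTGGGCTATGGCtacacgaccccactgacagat
Kcnn4 (KCa, chr7:24379177-24379233, + strand): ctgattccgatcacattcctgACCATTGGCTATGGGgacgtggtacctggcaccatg

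Library totals ranged from 5078092 to 9358055 counts in young, 5664869 to 9145600 in old, 10693060 to 13219797 in control and 9675610 to 11872431 in SOD1G93A mice. Values below are library-scaled counts (CPM, scaled by TMM), and a gene was called higher or lower at an adjusted p-value under 0.05 in edgeR's quasi-likelihood test over all genes tested. The markers of neurons and glia expected of spinal cord were present in every group. The summed level of 10 neuron markers was 9750 to 11191 CPM in young, 8344 to 10952 in old, 11348 to 12148 in control and 4650 to 7490 in SOD1G93A mice. A pair of libraries stood apart from the rest of their groups. The SOD1G93A library with the fewest counts, 9675610, had the highest neuron marker sum of the 3 (7490 CPM) and the lowest microglia and macrophage marker sum (1744 CPM, against 2695 and 3472). Among old mice, the library of 7055388 counts had the highest neuron sum (10952 CPM) and the lowest microglia and macrophage sum (703 CPM). Results that rest on these libraries are given with and without them. Among the genes described below, Kcna3, Kcnab1, Kcnab2, Kcnab3, Kcnd2, Kcnd3, Kcne4, Kcnh1, Kcnh2, Kcnh3, Kcnh7, Kcnip1, Kcnj3, Kcnk1, Kcnk2, Kcnk3, Kcnk4, Kcnk13, Kcnmb1, Kcnn1, Kcnq1, Kcnq3, Kcnq5, Kcnrg and Kcns3 overlap another annotated gene, and their counts are uncertain to that extent. In whole tissue, fewer cells of a type and less RNA per cell cannot be told apart.

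Transcript levels between genes were compared on the FPKM scale, which accounts for length. In young mice, Kcnj10, Kcnab2, Kcnc1, Kcnt1 and Kcnk1 were among the genes with the highest medians. Kcnj10, the astrocyte inward rectifier, had a median of 198 FPKM (192.6 to 207.6, n = 8). Kcnab2, a Kv beta subunit that binds Kv1 channels, had 195 FPKM (179.5 to 206.2). The ranges of these genes overlapped, whereas Kcnc1, a Kv3 channel of fast-firing neurons, was lower at 71.9 FPKM (67.8 to 74.2) with no overlap. Kcnt1, a sodium-activated channel, and Kcnk1, a K2P channel, followed at 47.3 and 46.9 FPKM with overlapping ranges. Control mice of the other experiment had medians of 184 FPKM for Kcnj10, 150 for Kcnab2, 72.2 for Kcnc1 and 59.1 for Kcnt1 (n = 3), and Kcnab1 had 48.5 FPKM. The 17 Kcn genes left out had at most 16 counts in any library, and only Kcnk7 and Kcnrg reached 10 counts, each in 1 library. Just inside the rule, Kcnj5, Kcnn4 and Kcnq1 reached 10 counts in 3 libraries, with at most 13, 31 and 12 counts. For Kcnj5 and Kcnn4 these were the 3 SOD1G93A libraries, so both are members only through that group.

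The first comparison asked which potassium channel genes change in spinal cord during normal aging. In old mice, 15 of the 71 members tested were lower (21.1%) and 3 were higher (4.23%), where 12.9% of all 13647 genes tested were lower and 13.5% were higher. Levels of these genes fell by 9.80% to 34.8%, and no member passed the study's further threshold of a log2 fold change beyond 1, which 2.18% of all genes passed upward and 0.044% downward. The log2 fold change was negative in 55 of the 71 members, with a median of -0.11 against -0.003 over all genes tested. Members called lower included Kv channels of axons and cell bodies (Kcna1, Kcna2, Kcna4, Kcnd2 and Kcnd3), the astrocyte channel Kcnj10, the leak channel Kcnk2 and the sodium-activated channel Kcnt1. Members called higher were Kcnj2, Kcns1 and Kcnk6. The 6 members not tested in this comparison for low counts were Kcne4, Kcnh3, Kcnh4, Kcnj5, Kcnn4 and Kcnq1.

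By class, 11 of 33 Kv genes were lower and 1 was higher in old mice, with a median log2 fold change of -0.15. Of 10 Kir genes 1 was lower and 1 higher (median -0.07), and the same counts held for the 10 K2P genes (median -0.08). Of 7 KCa genes 1 was lower (median -0.18), and of 11 auxiliary genes 1 was lower (median -0.01). None of the 8 electrically silent Kv subunits was lower, and Kcns1, one of them, was the Kv gene called higher. Over all genes tested, 12.9% were lower and 13.5% higher. The Kir, K2P, KCa, auxiliary and silent groups hold too few genes to show a difference from those shares. Silent subunits form no channel alone and modify other Kv channels.

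Among Kv1 genes, Kcna1 and Kcna2 encode the channels that lie beside the nodes of myelinated axons. Kcna1 ranged from 172 to 239 CPM with a median of 195 in young mice and from 140 to 185 CPM with a median of 164 in old mice. Its log2 fold change was -0.32 ± 0.07 (SE, adjusted p = 0.00212 in edgeR). Kcna2 ranged from 511 to 591 CPM (median 565) in young and from 436 to 537 CPM (median 474) in old mice, a change of -0.23 ± 0.04 (adjusted p = 0.00052). In both genes the upper old libraries overlapped the lower young ones. Kcna4, an A-type channel that inactivates quickly, had 7.23 to 13.1 CPM (median 11.7) in young and 4.58 to 9.25 CPM (median 7.37) in old mice, a change of -0.60 ± 0.14 (adjusted p = 0.00195). The largest decrease in fold was that of Kcnh8, an ether-a-go-go type channel, at -0.62 ± 0.19 (adjusted p = 0.0189), from a low level of 4.12 ± 0.840 CPM to 2.69 ± 0.836 CPM (SD, n = 8 each).

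Of the Kv4 genes, which encode A-type channels of cell bodies and dendrites, Kcnd2 and Kcnd3 fell and Kcnd1 gave 0.0057 ± 0.08 (adjusted p = 0.969). Kcnd2 went from 72.9 ± 3.38 to 62.5 ± 6.65 CPM (log2 fold change -0.22 ± 0.06, adjusted p = 0.00494). Kcnd3 went from 52.6 ± 2.86 to 44.6 ± 3.01 CPM (-0.24 ± 0.05, adjusted p = 0.00108). Kcnip2, a calcium-binding KChIP subunit of Kv4 channels, went from 17.5 ± 2.31 to 13.5 ± 2.04 CPM (-0.37 ± 0.10, adjusted p = 0.0075), while the other 3 KChIP genes were not called. Kcnc1, a Kv3 channel, fell by 9.80% (-0.15 ± 0.04, adjusted p = 0.0067). Other Kv genes called lower included Kcnh7 (-0.33 ± 0.12, adjusted p = 0.0428) and Kcnq3, a subunit of M-current channels (-0.18 ± 0.06, adjusted p = 0.0424). Kcnh7 and Kcnq3 lost the call when a single library was left out, with adjusted p-values of up to 0.0959 and 0.0922. They did so in 10 and 11 of the 16 leave-outs. The other 16 calls in old mice passed in each of the 16.

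Kcnj10 was lower in old mice, with 841 to 1125 CPM (median 926) against 1091 to 1229 CPM (median 1144) in young mice (log2 fold change -0.25 ± 0.05, adjusted p = 0.00136). The old library of 7055388 counts had the highest Kcnj10 value of its group. Kcnk2, a mechanically and thermally gated leak channel, had 21.2 to 25.3 CPM (median 24.6) in young and 15.6 to 23.3 CPM (median 18.7) in old mice (-0.31 ± 0.08, adjusted p = 0.00489). Kcnt1 fell by 15.1%, from 162 ± 9.52 to 137 ± 13.5 CPM (-0.24 ± 0.06, adjusted p = 0.00283). No member called lower had groups free of overlap, where 1.66% of all genes tested were lower in every old library than in every young one. The old library of 7055388 counts had the highest of the 8 old values in 10 of the 15 lower members, and in 34.3% of all genes lower in old mice. Without it, 19 members were lower, and members that included Kcna2, Kcnc1, Kcnd2, Kcnd3 and Kcnj10 were lower in every old than in every young library, as were 2.87% of all genes.

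The 3 members that rose with age were low in young mice. Kcnj2, a strong inward rectifier, had 9.99 to 14.5 CPM (median 13.1) in young mice and 16.3 to 21.1 CPM (median 20.5) in old mice. Every old library lay above every young one, the only such member, where 3.66% of all genes were higher without overlap. Its log2 fold change was 0.58 ± 0.08 (adjusted p = 1.08e-05). Kcns1 had 4.46 to 9.05 CPM (median 6.55) in young and 5.17 to 14.9 CPM (median 10.6) in old mice, with overlap at the low end (0.65 ± 0.16, adjusted p = 0.00451). Kcnk6, a K2P channel of macrophages and other cells, had 1.47 to 4.28 CPM (median 2.97) in young and 3.08 to 7.16 CPM (median 4.27) in old mice, again with overlap (0.66 ± 0.20, adjusted p = 0.0176).

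**Figure D1:**
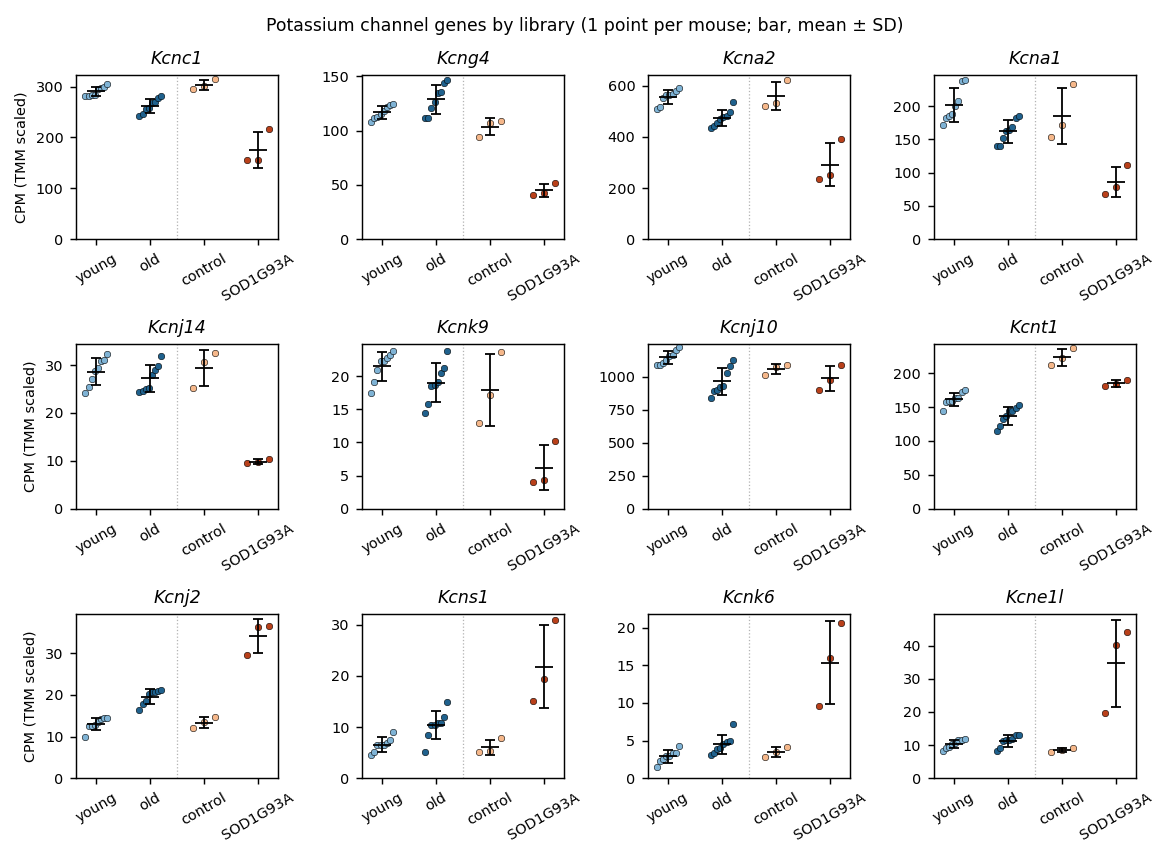
CPM scaled by TMM (vertical axis from 0) of 12 potassium channel genes in each library of the young, old, control and SOD1G93A groups, with 1 point per mouse and the mean ± SD as bars. The 3 SOD1G93A points of Kcnc1, Kcng4, Kcna2, Kcna1, Kcnj14 and Kcnk9 lie below all control points, those of Kcnj2, Kcns1, Kcnk6 and Kcne1l lie above them, and Kcnj10 overlaps.

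The second comparison asked which of the genes change in symptomatic SOD1G93A mice. Here 34 of the 75 members tested were lower than in controls (45.3%) and 7 were higher (9.33%), where 15.5% of all 14386 genes tested were lower and 18.4% were higher. The levels of these genes fell by 17.2% to 68.5%. Past the further threshold of a log2 fold change beyond 1, 10 members were lower and 5 were higher, against 1.2% and 8.5% of all genes. The log2 fold change was negative in 64 of 75 members, with a median of -0.55 against 0.003 over all genes tested. Genes lower by more than 1 on the log2 scale included the Kv genes Kcng1, Kcng4, Kcns3, Kcna1 and Kcnv1, the inward rectifiers Kcnj14 and Kcnj12, and the leak channels Kcnk9 and Kcnk12. Genes higher by more than 1 were Kcnn4, Kcnk6, Kcne1l, Kcns1 and Kcnj2, followed by Kcnj8 and Kcnn3 below that size. Kcnmb1 and Kcnq1 had too few counts to be tested.

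As a share of all counts, the 77 genes held 0.593% to 0.625% in the 3 control libraries and 0.389% to 0.491% in the 3 SOD1G93A libraries, with no overlap. In young mice the share was 0.62% to 0.653% and in old mice 0.559% to 0.62%. Within this pool, Kcnj10 made up 16.8% to 17.8% of member counts in control and 20.4% to 27.8% in SOD1G93A mice.

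By class, 19 of 35 Kv genes were lower and 1 was higher in SOD1G93A mice, with a median log2 fold change of -0.64. Of 11 Kir genes 4 were lower and 2 higher (median -0.28), and of 10 K2P genes 4 were lower and 1 higher (median -0.54). Of 8 KCa genes 2 were lower and 2 higher (median -0.32), and of 11 auxiliary genes 5 were lower and 1 higher (median -0.55). Of the 2 higher KCa genes, Kcnn4 met the count rule only through the SOD1G93A libraries. Over all genes tested, 15.5% were lower and 18.4% higher. All 3 Kv beta genes and 2 of 4 KChIP genes were lower among the auxiliary subunits.

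Kv3 channels open and close quickly and allow trains of spikes at high frequency. Kcnc1 had 296, 301 and 315 CPM in control and 155, 156 and 216 CPM in SOD1G93A mice (log2 fold change -0.79 ± 0.13, adjusted p = 0.00342). All 3 SOD1G93A libraries lay below the controls. Kcnc4 (-0.71 ± 0.12, adjusted p = 0.00366) and Kcnc2 (-0.66 ± 0.13, adjusted p = 0.00559) were lower by less.

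Kcna1 and Kcna2, the Kv1 genes of axons, were lower, as were the Kv beta genes. Other Kv1 genes, such as Kcna4 and Kcna3, were not called. Kcna1 had 153, 171 and 233 CPM in control and 68.0, 78.1 and 112 CPM in SOD1G93A mice (log2 fold change -1.11 ± 0.21, adjusted p = 0.0049). Kcna2 had 523, 532 and 623 CPM in control and 234, 252 and 391 CPM in SOD1G93A mice (-0.94 ± 0.19, adjusted p = 0.0065). The groups of both genes did not overlap. Kcnab2 had 508, 526 and 534 CPM in control and 224, 277 and 372 CPM in SOD1G93A mice (-0.85 ± 0.16, adjusted p = 0.00601). Kcnab1 had 154, 162 and 181 CPM against 67.4, 73.5 and 111 CPM (-0.99 ± 0.17, adjusted p = 0.00418), and Kcnab3 fell by 37.5% (-0.68 ± 0.15, adjusted p = 0.0102). Kcna4, which fell in old mice, gave -0.28 ± 0.28 here (adjusted p = 0.476).

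Of the 8 silent subunits, 4 were lower, 1 was higher and 3 were not called. Over all genes tested, 15.5% were lower and 18.4% higher. The largest decrease in fold among all members was that of the silent subunit Kcng1. Kcng1 had 9.09, 9.30 and 13.6 CPM in control and 2.88, 3.22 and 4.03 CPM in SOD1G93A mice (log2 fold change -1.67 ± 0.24, adjusted p = 0.00147). Kcng4, at a higher level, had 94.5, 107 and 109 CPM in control and 40.8, 42.6 and 51.8 CPM in SOD1G93A mice (-1.20 ± 0.11, adjusted p = 0.00024). Kcns3 gave -1.16 ± 0.26 (adjusted p = 0.0106), with 8.30, 10.2 and 19.1 CPM in SOD1G93A mice against 25.9 to 29.4 CPM in controls. Kcnv1 gave -1.02 ± 0.30 (adjusted p = 0.0296) from 12 to 15 counts per SOD1G93A library and 23 to 35 per control library. With DESeq2 the adjusted p of Kcnv1 was 0.07. Kcnh2, the ether-a-go-go related channel that repolarizes cells slowly, had 126, 134 and 136 CPM in control and 59.7, 68.2 and 95.7 CPM in SOD1G93A mice (-0.83 ± 0.16, adjusted p = 0.00539).

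Among inward rectifiers, Kcnj14 had 25.3, 30.6 and 32.5 CPM in control and 9.49, 9.66 and 10.4 CPM in SOD1G93A mice. Its log2 fold change of -1.58 ± 0.13 (adjusted p = 0.00017) was the largest decrease among Kir genes. Kcnj14 encodes a channel of the Kir2 group that has been described in motor nuclei of the brainstem. Kcnj12, also of the Kir2 group, had 8.45, 9.68 and 13.1 CPM in control and 4.07, 4.48 and 4.83 CPM in SOD1G93A mice (-1.23 ± 0.21, adjusted p = 0.0038). Kcnj2, the third Kir2 member tested, moved the other way, with 11.96, 13.4 and 14.7 CPM in control and 29.5, 36.3 and 36.5 CPM in SOD1G93A mice (1.35 ± 0.13, adjusted p = 0.00026). The other Kir genes called lower were Kcnj3 (-0.63 ± 0.15, adjusted p = 0.0134), a G-protein-gated channel, and Kcnj11 (-0.60 ± 0.13, adjusted p = 0.00959), the pore of neuronal channels closed by ATP.

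Among K2P genes, Kcnk9, an acid-sensitive leak channel, had 12.9, 17.1 and 23.7 CPM in control and 4.07, 4.39 and 10.2 CPM in SOD1G93A mice (log2 fold change -1.55 ± 0.35, adjusted p = 0.0113). The highest SOD1G93A value, from the library with the fewest counts, came near the lowest control. Kcnk12 had 10.7, 13.5 and 14.2 CPM in control and 5.34, 6.00 and 7.45 CPM in SOD1G93A mice (-1.04 ± 0.19, adjusted p = 0.00452). Kcnk3, close in sequence to Kcnk9, fell by 39.1% (-0.72 ± 0.14, adjusted p = 0.00587), and Kcnk4 fell by 46.3% (-0.90 ± 0.23, adjusted p = 0.0168). Kcnk1, one of the K2P genes with the highest levels, overlapped between groups (-0.06 ± 0.16, adjusted p = 0.787), and Kcnk2 gave -0.18 ± 0.12 (adjusted p = 0.263).

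Kcnk6 had 2.85, 3.45 and 4.15 CPM in control and 9.57, 15.9 and 20.6 CPM in SOD1G93A mice, a 4.39-fold increase (log2 fold change 2.13 ± 0.29, adjusted p = 0.00129). Kcnn4, the intermediate-conductance KCa channel of immune cells, had 3 to 5 counts per control library and 17 to 31 per SOD1G93A library, which is 0.231 to 0.474 CPM against 1.61 to 2.63 CPM (2.63 ± 0.45, adjusted p = 0.00345). Kcnn4 met the 10-count rule only through these SOD1G93A libraries, so its rise adds no support to the counts of higher members. Kcne1l, an X-linked auxiliary subunit now also named Kcne5, had 7.998, 8.61 and 9.21 CPM in control and 19.7, 40.2 and 44.0 CPM in SOD1G93A mice (2.01 ± 0.27, adjusted p = 0.00126). In Kcnk6 and Kcne1l the lowest SOD1G93A value was from the library with the fewest counts. Kcns1 had 5.05, 5.23 and 7.78 CPM in control and 15.2, 19.3 and 30.9 CPM in SOD1G93A mice (1.86 ± 0.29, adjusted p = 0.00222), against the direction of the silent subunits Kcng1, Kcng4, Kcns3 and Kcnv1. Kcnn3, a small-conductance KCa channel, had 17.7, 21.9 and 24.0 CPM in control and 30.3, 30.9 and 35.2 CPM in SOD1G93A mice (0.60 ± 0.13, adjusted p = 0.00951). Its relative Kcnn1 was lower (-0.56 ± 0.18, adjusted p = 0.0373), as was Kcnt1, with 211, 222 and 237 CPM in control and 180, 184 and 190 CPM in SOD1G93A mice (-0.27 ± 0.08, adjusted p = 0.0349).

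All 34 lower members were lower in every SOD1G93A library than in every control library. Counted over all 75 members tested, 44 were lower without overlap, against 24.7% of all genes, and 9 were higher without overlap, against 25.7%. The 9 include Kcnj5 and Kcnn4, which met the rule only through the SOD1G93A libraries. In each of the 34 lower members, the SOD1G93A library with the fewest counts had the highest value of the 3, as it did in 89.0% of all genes lower in these mice. It had the lowest value in 5 of the 7 higher members. Without that library 41 members were lower, 16 of them beyond 1 on the log2 scale. Without the SOD1G93A library of 10926373 counts 20 were lower, 6 of them beyond 1, and without the control library of 12080159 counts 23 were lower, 6 of them beyond 1. In each of the 6 leave-outs 6 or 7 members were higher. Of the 41 calls, 26 passed in all 6 leave-outs. Kcnh7, Kcnn1, Kcnt1 and Kcnv1 passed in 1 of the 6, with adjusted p-values of up to 0.144, 0.148, 0.124 and 0.12. Kcnd2, Kcnd3, Kcnj8 and Kcnk4 passed in 2, with values of up to 0.0735, 0.0982, 0.105 and 0.0625. Kcnab3, Kcnh1, Kcnip1, Kcnj3, Kcnk9, Kcnq5 and Kcns3 passed in 3 to 5, with values of up to 0.0664. With 2 libraries left in a group, the spread is estimated from few values.

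**Figure D2:**
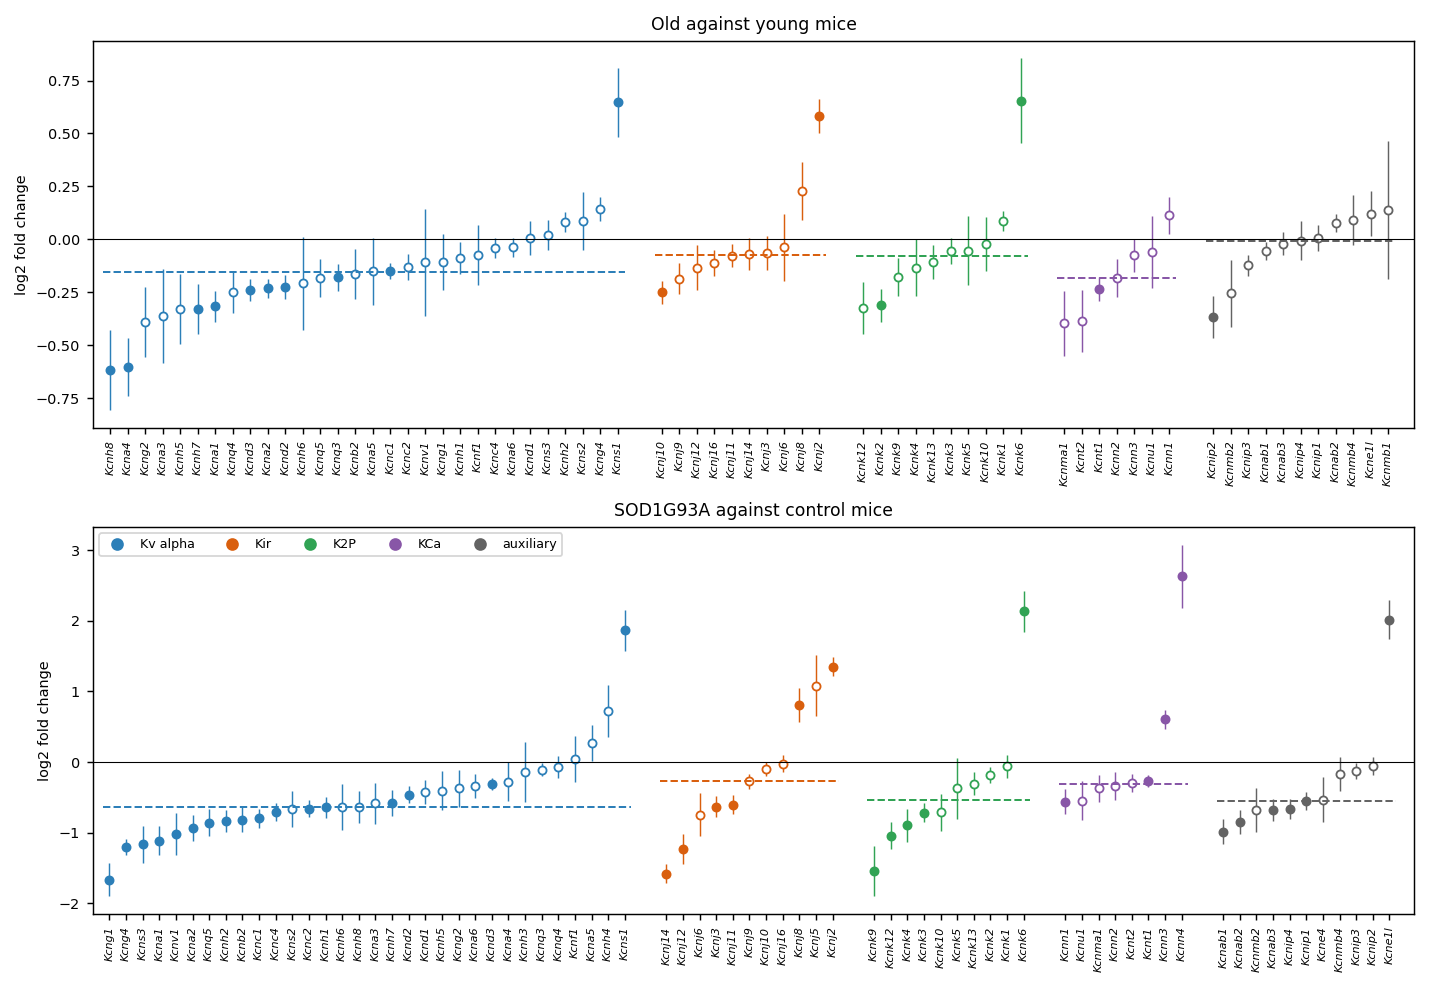
Log2 fold change with its SE (vertical axis) of the potassium channel genes, ordered within their class, in old against young mice (top) and SOD1G93A against control mice (bottom), with filled points at an adjusted p under 0.05 and dashed lines at the class medians over all members tested. The Kv median is -0.15 in the upper and -0.64 in the lower panel, and the vertical scales differ.

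Neuronal and glial members were separated by lists from general knowledge, with 33 neuronal, 6 glial and 2 vascular genes, and 36 on no list. In old mice, 11 of 32 neuronal members were lower and 1 was higher (median log2 fold change -0.16), and of 5 glial members 1 was lower and 1 higher (median -0.11). In SOD1G93A mice, 20 of 33 neuronal members were lower and 1 was higher (median -0.58). None of the 6 glial members was lower there and 2 were higher (median -0.06), where 15.5% of all genes were lower and 18.4% higher. So few genes cannot show a difference from those shares. Of the 2 higher, Kcnn4 met the count rule only through the SOD1G93A libraries. Of members on no list, 3 of 32 were lower and 1 was higher in old mice, and 14 of 35 were lower and 3 higher in SOD1G93A mice (median -0.55). Kcns1 was the single neuronal member that was higher in either comparison.

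The glial genes did not move together. Kcnj10 in astrocytes had 1017, 1072 and 1087 CPM in control and 901, 979 and 1090 CPM in SOD1G93A mice, with overlap (log2 fold change -0.10 ± 0.10, adjusted p = 0.489). Kcnj16, which encodes its partner subunit, had 64.1, 78.3 and 82.3 CPM in control and 68.0, 69.3 and 83.5 CPM in SOD1G93A mice (-0.03 ± 0.12, adjusted p = 0.887). Kcnk13, a K2P channel of microglia, had 20.7, 26.7 and 28.2 CPM in control and 16.6, 21.5 and 22.9 CPM in SOD1G93A mice (-0.31 ± 0.16, adjusted p = 0.17), and Kcna3, a Kv1 channel of lymphocytes and microglia, gave -0.58 ± 0.29 (adjusted p = 0.152). Kcnk6 and Kcnn4, on the same list, were the 2 that rose. In old mice Kcnj16, Kcnk13 and Kcna3 gave -0.11 ± 0.06, -0.11 ± 0.08 and -0.36 ± 0.22, with none past the threshold. Of the vascular genes, Kcnj8, the ATP-closed channel of pericytes and smooth muscle, had 3.45, 3.46 and 5.41 CPM in control and 6.24, 7.25 and 7.88 CPM in SOD1G93A mice (0.80 ± 0.24, adjusted p = 0.0294). Kcnmb1, the smooth muscle subunit of the large-conductance KCa channel, stayed near or under 1.85 CPM in every library and lies within Kcnip1 on the other strand.

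Markers of cell types moved beside these genes. In SOD1G93A mice, 9 of 10 neuron markers were lower (median log2 fold change -0.71), as were 5 of 7 motor neuron markers (median -0.87, summed level 251 to 285 CPM in control and 137 to 152 in SOD1G93A mice). Of 12 microglia and macrophage markers 10 were higher (summed level 410 to 494 CPM against 1744 to 3472), and of 9 astrocyte markers 6 were higher (7515 to 8179 CPM against 13193 to 19969). None of 8 oligodendrocyte markers was called, and 3 of 4 markers of oligodendrocyte precursors were higher. Sensory ganglion cells could enter with nerve roots. Their markers summed to 20.8 to 29.99 CPM in control and 14.6 to 19.6 CPM in SOD1G93A mice. Of the 2 tested, 1 was higher and 1 lower. Of 5 markers of Schwann cells and nerve root, 3 were tested and 2 were higher (98.9 to 117 CPM against 134 to 317). Of 7 T cell markers 6 were in the table, none with more than 14 counts in a library. In old mice, 4 of 10 neuron markers were lower and 1 higher (median -0.15), 0 of 7 motor neuron markers were called, and 11 of 12 microglia and macrophage markers were higher (397 to 446 CPM against 703 to 1184). Of 9 astrocyte markers 5 were higher and 1 lower in old mice (8066 to 8814 CPM against 9110 to 9955), while Kcnj10 was lower. Of 8 oligodendrocyte markers 3 were lower and 1 higher there, and 2 of 4 precursor markers were lower. Of the members tested, 22 of 75 in SOD1G93A mice and 30 of 71 in old mice had a log2 fold change below the neuron marker median. In the SOD1G93A library with the fewest counts, all 10 neuron markers had their highest value of the 3, and 11 of 12 microglia and macrophage markers their lowest. The part of these cell types in the potassium channel results was not tested.

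**Figure D3:**
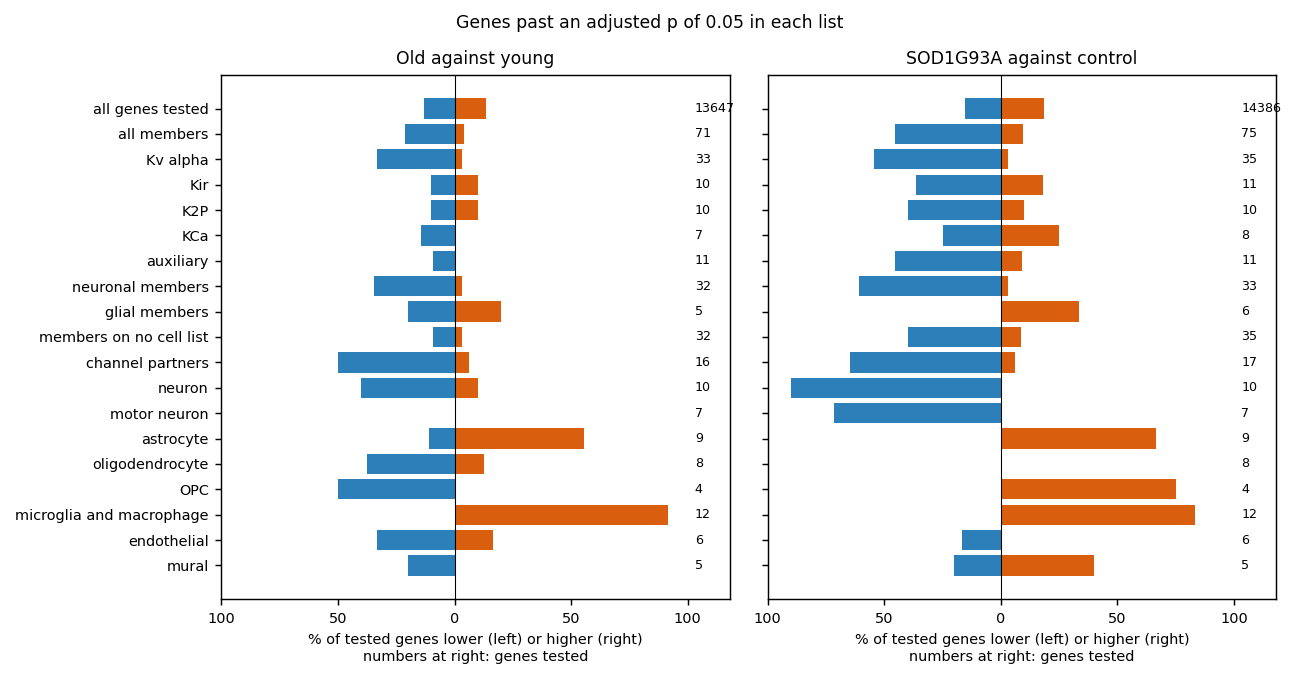
Share of tested genes (horizontal axis, %) called lower (left, blue) or higher (right, orange) at an adjusted p under 0.05 in each list of potassium channel genes and of cell type markers, with the number tested at the right, for old against young and SOD1G93A against control mice. Neuronal members were lower in 11 of 32 and 20 of 33. In SOD1G93A mice 0 of 6 glial members and 15.5% of all genes tested were lower.

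Both comparisons tested 70 members, and they share no samples. Of these, 9 were lower in both (among them Kcna1, Kcna2, Kcnc1, Kcnd2, Kcnd3, Kcnh7 and Kcnt1), 3 were higher in both (Kcnj2, Kcns1 and Kcnk6), 6 were called lower in old but not in SOD1G93A mice (Kcna4, Kcnh8, Kcnip2, Kcnj10, Kcnk2 and Kcnq3), 25 were called lower in SOD1G93A but not in old mice, 3 were called higher in SOD1G93A but not in old mice (Kcne1l, Kcnj8 and Kcnn3), and 24 were called in neither. No member was called in opposite directions. The matching shares over all genes were not computed, so these counts cannot show a trait of potassium channel genes. Whether the changes themselves differed was tested as an interaction in a single model of the 22 libraries, where kit and experiment cannot be told apart. None of the 6 genes called lower only in old mice passed that test (adjusted p from 0.228 to 0.935), and Kcnh8 gave -0.62 in old and -0.64 in SOD1G93A mice. Kcnj8 did not pass either (0.55 ± 0.26, adjusted p = 0.119). The change in SOD1G93A mice was more negative than that in old mice in 31 of 74 members and more positive in 6. That is 50% called, where 25.8% of all 14502 genes were (14.2% more negative and 11.6% more positive). The 6 include Kcnn4, which met the count rule only through the SOD1G93A libraries and was not tested in old mice on their own. Of the 34 members lower in SOD1G93A mice, 29 also had a more negative change than in aging. Both tests use the same difference between SOD1G93A and control mice, so a high number is built in. The share among all genes lower in SOD1G93A mice was not computed. Of the 37 calls, 29 passed in each of the 22 leave-outs.

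The smallest adjusted p of this test was that of Kcng4, which gave 0.14 ± 0.06 in old and -1.20 ± 0.11 in SOD1G93A mice, a difference of -1.37 ± 0.12 (adjusted p = 7.82e-08). Kcnj14 followed with a difference of -1.54 ± 0.15 (adjusted p = 2.38e-07) and a change of -0.07 ± 0.07 in old mice. Kcns3 (-1.21 ± 0.21), Kcnab1 (-0.96 ± 0.13), Kcnab2 (-0.95 ± 0.13) and Kcnh2 (-0.94 ± 0.13) also differed, and none of these 4 was called in old mice. Among the 6 genes with a more positive change, Kcne1l differed by 1.87 ± 0.25 (adjusted p = 1.32e-05) and was not called in old mice (0.12 ± 0.11). Kcnj2, Kcnk6 and Kcns1 rose in both, by more in SOD1G93A mice, with differences of 0.74 ± 0.15, 1.45 ± 0.35 and 1.19 ± 0.32. For Kcns1, leaving out the SOD1G93A library of 10926373 counts raised the adjusted p of the difference from 0.00771 to 0.0589. Of the 15 genes lower in old mice, 5 differed (among them Kcna1, Kcna2 and Kcnc1), where 25.8% of all genes did. These 15 were chosen on the change in old mice, which is part of the difference tested. Kcnd3 (-0.10 ± 0.09, adjusted p = 0.48), Kcnt1 (-0.06 ± 0.10, adjusted p = 0.695) and Kcnj10 (0.13 ± 0.11, adjusted p = 0.428) did not pass.

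**Figure D4:**
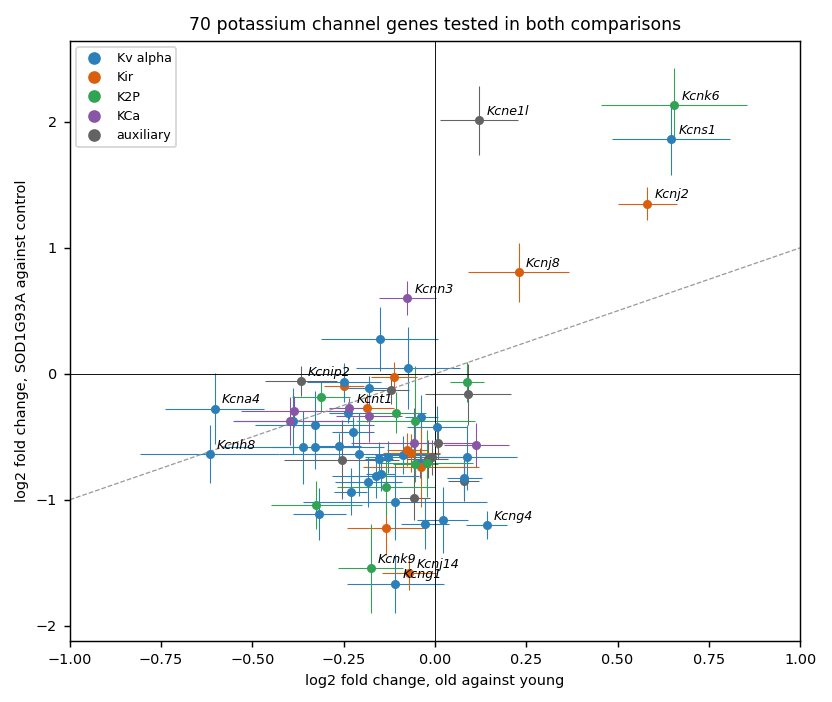
Log2 fold change in old against young mice (horizontal axis) and in SOD1G93A against control mice (vertical axis) of the 70 potassium channel genes tested in both, with SE bars and colour by class, and a dashed line where the changes would be equal. Kcnj2, Kcns1 and Kcnk6 lie at the upper right, and Kcng4, Kcnj14 and Kcng1 lie near 0 on the horizontal axis and below -1 on the vertical.

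Genes that encode partners of potassium channels were taken from a separate list of 18 genes. In old mice, 8 of 16 tested were lower, 1 was higher and 7 were not called (median -0.16). In SOD1G93A mice 11 of 17 were lower, 1 was higher and 5 were not called (median -0.46). Over all genes tested, 12.9% were lower and 13.5% higher in old mice, and 15.5% and 18.4% in SOD1G93A mice. Cntnap2 and Cntn2 hold Kv1 channels beside the nodes of myelinated axons. Cntn2 gave -0.23 ± 0.04 in old and -0.32 ± 0.09 in SOD1G93A mice, and Cntnap2 gave -0.17 ± 0.05 and -0.74 ± 0.19, all 4 called. Dpp6 and Dpp10, subunits of Kv4 channels, gave -0.64 ± 0.14 and -0.71 ± 0.18 in SOD1G93A mice. Abcc8, the sulfonylurea receptor that pairs with Kcnj11, gave -0.65 ± 0.12. Adam22 and Lgi2, which belong to a secreted ligand and receptor system linked to Kv1 channels, were lower in both comparisons, with -0.21 ± 0.04 and -0.16 ± 0.04 in old and -0.46 ± 0.13 and -0.88 ± 0.17 in SOD1G93A mice. Lgi4, a ligand of glial cells, was the 1 partner that rose, from 46.5 to 64.9 CPM in old mice (0.49 ± 0.07) and from 49.2 to 104 CPM in SOD1G93A mice (1.08 ± 0.09).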

How the data were processed

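RNA-seq of whole spinal cord from 22 mice was used, and motor neuron-specific transgenic mice were not analysed here. The authors aligned reads with STAR to mm10 and summarized them per gene with RSEM on Ensembl 88. Per the labels, SAMtools 1.3 was also used. The authors deposited RSEM expected counts as whole numbers, without normalization between libraries. The authors also deposited a table on the log2 scale, in which 1 had been added to each FPKM. Strand use in counting is not given in the sources used here, and of the 77 members 17 overlap another annotated gene on the same strand and 35 on the other, so those counts may hold reads of a neighbour. Of the 21995 genes, 21842 were found in GENCODE M21.

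Columns name a group and a library. All were used. No pair of libraries within a group agreed within sampling noise (chi-square per degree of freedom at least 2.52). P-values weigh the difference between groups against the spread between these samples, which edgeR estimates with information shared across genes.

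In R 4.3.3, edgeR 4.0.16 was applied to each comparison on its own (filterByExpr with minimum count 10 and minimum total 15, TMM, quasi-likelihood test, Benjamini-Hochberg over all genes tested). The study's log2 fold change threshold of 1 is given beside the calls. The script was tested on simulated data. Alternatives used DESeq2 1.42.0, limma 3.58.1, other scalings and filters, and each library left out. The potassium channel genes, the marker lists, the partner list and the alternatives were chosen with earlier results of these data known, so no list was tested as a set. Genes named were members past both thresholds, the 8 largest and 12 smallest changes called in each comparison, all glial and vascular members, the 6 highest by FPKM, the 10 smallest interaction p-values, and partners called. Kcnc2, Kcnd1, Kcnab3, Kcnip1, Kcnh1 to Kcnh4, Kcnj3, Kcnj5, Kcnj11, Kcnk3, Kcnk4, Kcnk7, Kcnn1, Kcnq1, Kcnq3, Kcnq5, Kcne4 and Kcnrg are named to complete small counts, after their values were seen. Some members that count in the totals are not reported here by name.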

Additional observations from a re-analysis of the deposited data

Results flagged for a closer look

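In groups of 8 mice, 5 of 72 group values tested had an extreme library by Dixon's test at the 95% level, which chance alone gives in about 1 of 20 groups. In the old group, the library of 7055388 counts had 94.7 CPM of Kcnc4 (the next was 85.7). The other old value was 7.16 CPM of Kcnk6 (4.90). In young mice the values were 13.2 CPM of Kcng1 (10.5), 137 CPM of Kcnh2 (125) and, at the low end, 9.99 CPM of Kcnj2 (12.5).

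The change in SOD1G93A mice differed from that in old mice, by the interaction test of edgeR, in 20 of the genes named. The difference on the log2 scale was more negative for Kcnj14 (-1.54), Kcng1 (-1.59), Kcnk9 (-1.40), Kcng4 (-1.37), Kcns3 (-1.21), Kcnj12 (-1.12), Kcnab1 (-0.96), Kcnab2 (-0.95), Kcnh2 (-0.94), Kcna1 (-0.83), Kcnk12 (-0.74), Kcna2 (-0.73), Kcnc4 (-0.69) and Kcnc1 (-0.67). It was more positive for Kcnn4 (2.20), Kcne1l (1.87), Kcnk6 (1.45), Kcns1 (1.19), Kcnj2 (0.74) and Kcnn3 (0.65). Kcnn4 met the count rule only through the SOD1G93A libraries and had too few counts to be tested between young and old mice. For Kcnk12 and Kcns1 the adjusted p reached 0.0729 and 0.0589 when 1 library was left out.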

How the results depend on the processing

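No paired analysis was possible because the columns carry a group and a library but no replicate number. With a log2 fold change beyond 1 required as well, 0 members were higher and 0 lower in old mice, and 10 were lower in SOD1G93A mice. With limma on log2(FPKM + 1), 7 members were lower in old mice and 26 in SOD1G93A mice, and the median log2 fold change in SOD1G93A mice was -0.29 over all members, -0.34 over Kv and -0.20 over KCa genes. This scale understates the change of low genes. DESeq2 gave 16 lower in old and 33 lower in SOD1G93A mice, and 1 fit of all libraries gave 15 and 42. With 1 library left out, 13 to 19 members were lower and 3 to 4 higher in old mice, 20 to 41 lower and 6 to 7 higher in SOD1G93A mice, and 25 to 34 more negative and 5 to 7 more positive in the interaction. The lowest count, 20, was without the SOD1G93A library of 10926373 counts. Of the values under the other alternatives, 608 kept direction and side of the threshold, 16 lost the call, 1 gained it and 2 changed sign. With 1 library left out these were 1569, 49, 9 and 19. The values that changed sign were not called in any of these fits. With limma they were Kcnn3 in old mice (0.0060) and Kcnj16 in SOD1G93A mice (0.027). With 1 library left out, the log2 fold change ranged from -0.011 to 0.050 for Kcns3 and from -0.21 to 0.015 for Kcnv1 in old mice, and from -0.11 to 0.032 for Kcnip2, -0.13 to 0.045 for Kcnj16 and -0.27 to 0.053 for Kcnk1 in SOD1G93A mice. The interaction ranged from -0.10 to 0.49 for Kcna4, -0.16 to 0.076 for Kcnh8 and -0.053 to 0.13 for Kcnj16. Precision is limited by 3 mice a group in the SOD1G93A comparison and by counts under 40 per library for Kcnn4 and Kcnv1.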
